A study of Drosophila melanogaster with 2 samples.

Results

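Neuronal and glial genes, 48 named members, were examined for binding of the transcription factor CG43689 in whole Drosophila melanogaster embryos. They were chosen by gene symbol with earlier results of these data known, so intervals on their shares describe counting error only. All 48 of 48 were found among the 13945 protein-coding genes of the chromosome arms, and 22 of them (45.8%, Wilson 95% interval 32.6 to 59.7%) had a summit of the main peak list in the gene body or within 5 kb of it. Those windows held 27 of the 2062 main summits on the arms. The member list covers neuronal RNA-binding proteins (3 genes), synaptic vesicle release (5), voltage-gated channels (8), synaptic adhesion and scaffold (6), axon growth and cytoskeleton (4), midline guidance (7), glia and septate junctions (7), transmitter synthesis and transport (6) and asymmetric division and fate (2).

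The embryos were 8 to 24 h old and came from flies with a transgene for a CG43689-eGFP fusion protein. The chromatin, sonicated to a size range of 200 to 800 bp, was pulled down through the GFP tag according to the label's description, although another label field names the antibody as CG43689. The study had 2 biological replicates of this 1 group, no second condition was compared, and no input or control library was analysed here. Because whole embryos were used, a peak cannot be assigned to neurons, glia or any other tissue, and binding in few cells and weak binding in many cells cannot be told apart.

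Many neurons and glia of the fly embryo descend from neuroblasts, which divide asymmetrically and hand fate determinants such as Numb and Prospero to a daughter cell. Postmitotic neurons then switch on RNA-binding proteins of the Elav family, channels, vesicle release machinery and transmitter enzymes, while axons read Slit and Netrin at the midline. Glia wrap the nerve cord and seal it with septate junctions, which form the blood-brain barrier. The developmental window sampled covers axon outgrowth and the assembly of synapses.

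The main list held 2088 peaks called from both replicates together, out of 151546 ranked candidates. Each peak carried the authors' signal value, a strength on a scale that holds within a list only, and the main list had a median of 88.1 and a highest value of 1040.0. Replicate 1 alone gave 1253 peaks with a median signal of 58.4, and replicate 2 alone gave 1265 with a median of 62.0. A summit is the position of a peak's maximum, and support means that a main peak shared at least 1 bp with a peak of a replicate's own list.

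Of the 22 members with a main summit, 7 had one within 500 bp of a start site of their own. These were moody, elav, numb, Nrx-1, Ten-a, dlg1 and Gli, and they are shown here as sequence because they are the summits placed at promoters of the genes themselves. The summits of Gad1, the strongest outside the own promoters, and of ChAT, in the intron of the cholinergic locus, are shown beside them. Each run holds the summit and 50 bases to each side of it, 5′ to 3′ on the strand of the gene, from the NCBI RefSeq Release 6 assembly, which shares its coordinates with dm6, and the capitals mark the longest run of A and T alone. The intervals are chrX:2050242-2050342 (minus strand) for moody, chrX:523427-523527 (minus) for elav, chr2L:9449534-9449634 (plus) for numb, chr3R:22469264-22469364 (plus) for Nrx-1, chrX:12203763-12203863 (plus) for Ten-a, chrX:11390715-11390815 (plus) for dlg1, chr2L:15762109-15762209 (minus) for Gli, chr3L:4070568-4070668 (minus) for Gad1 and chr3R:18719951-18720051 (plus) for ChAT.
moody: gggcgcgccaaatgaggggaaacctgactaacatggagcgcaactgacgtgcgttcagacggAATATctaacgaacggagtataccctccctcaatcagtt
elav: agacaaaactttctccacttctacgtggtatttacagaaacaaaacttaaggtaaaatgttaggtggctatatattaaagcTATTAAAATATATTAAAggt
numb: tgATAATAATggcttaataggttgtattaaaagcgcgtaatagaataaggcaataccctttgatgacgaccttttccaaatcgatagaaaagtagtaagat
Nrx-1: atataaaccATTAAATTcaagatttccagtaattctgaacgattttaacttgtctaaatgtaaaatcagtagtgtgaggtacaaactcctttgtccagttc
Ten-a: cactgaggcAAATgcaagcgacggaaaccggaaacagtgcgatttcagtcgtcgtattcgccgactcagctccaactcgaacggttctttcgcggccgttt
dlg1: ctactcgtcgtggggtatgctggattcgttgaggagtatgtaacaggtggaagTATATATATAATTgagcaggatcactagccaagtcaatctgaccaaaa
Gli: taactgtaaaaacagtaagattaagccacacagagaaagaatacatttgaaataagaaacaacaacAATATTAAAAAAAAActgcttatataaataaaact
Gad1: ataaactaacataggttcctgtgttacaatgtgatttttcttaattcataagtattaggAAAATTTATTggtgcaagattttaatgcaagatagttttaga
ChAT: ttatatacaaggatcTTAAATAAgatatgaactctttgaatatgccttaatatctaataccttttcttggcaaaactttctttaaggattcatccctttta
The sequences differ in composition. A and T made up 78 of the bases at Gli and 73 at elav, against 48 at moody and 46 at Ten-a. The run at elav was 17 bases long and that at Gli 15, whereas the longest at moody was 5 and at Ten-a 4. The strongest summit of all members, that of moody, was therefore among the least A/T-rich.

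Among all protein-coding genes, 27.4% had a main summit in the body or within 5 kb, against the 45.8% of members. The window grows with the gene, and the members were long, with a median length of 32349 bp (range 2248 to 291517) against 2166 bp for all protein-coding genes. Gene length was therefore taken into account by class. Under 10 kb, 6 of 11 members (54.5%) had a summit, against 25.1% of all protein-coding genes of that length. From 10 to 30 kb it was 7 of 12 (58.3%) against 37.1%, from 30 to 60 kb 4 of 16 (25%) against 45.7%, and at 60 kb and over 5 of 9 (55.6%) against 56.1%. The 7 include both ChAT and VAChT, which share a summit. The background lay inside the members' interval in each class except the shortest, where that interval began at 28.0%. This is a description and not a test, as the members were not a random sample. In the shortest class the members were again the longer genes, with a median of 5829 bp against 1831 bp. Of the 6 members with a summit there, only moody and Gli had it at their own start site. The summits of Syx1A, Rab3, robo1 and ple lay beyond the gene.

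**Figure D1:**
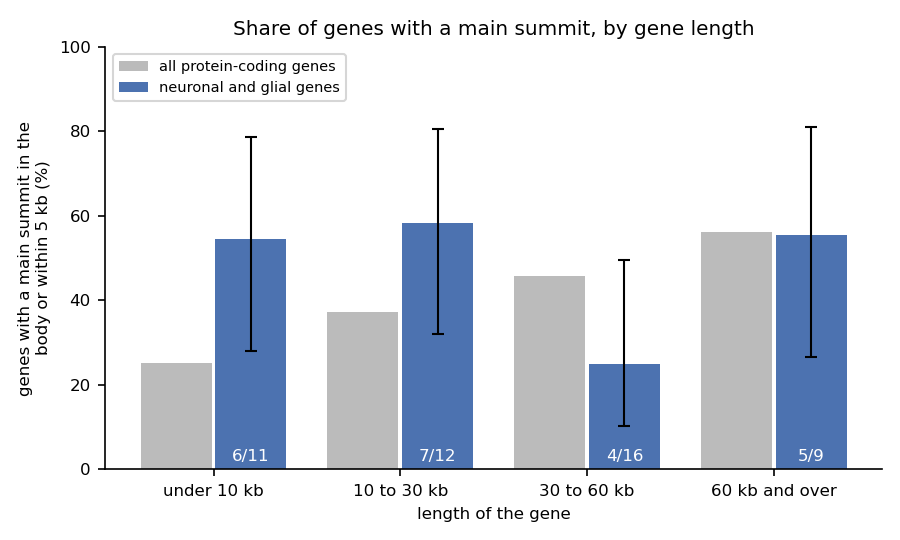
Share of genes, in percent, with a main summit in the gene body or within 5 kb, by class of gene length; grey bars are all protein-coding genes, blue bars the members with their Wilson 95% intervals and counts. The members range from 25% (30 to 60 kb) to 58.3% (10 to 30 kb), and all genes rise from 25.1% to 56.1% with length.

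Counting a summit only where it lay in the body of the gene or at its own start site left 14 of 48 members (29.2%, interval 18.2 to 43.2%), against 12.1% of all protein-coding genes, without allowance for length. The other 8 members had summits only beyond the gene. At a start site, 7 of 48 members (14.6%, interval 7.25 to 27.2%) had a summit, against 8.36% of all protein-coding genes. The members have more annotated start sites, 2.25 per gene against 1.41, and per start site the shares were alike, with 8 of 108 (7.41%) against 1455 of 19607 (7.42%). In an intron, outside those start-site windows, 7 members (14.6%) had a summit against 4.17% of all genes. Among genes of 30 kb and over it was 4 of 25 members (16.0%, interval 6.40 to 34.7%) against 218 of 663 (32.9%).

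Per length of DNA, main summits were less dense in the member windows than elsewhere. The windows spanned 2.37 Mb and held 11.4 main summits per Mb, against 17.4 in the windows of all protein-coding genes and 15.4 on the arms. Ranked candidates were as dense there as elsewhere, at 1171 per Mb against 1138 and 1109. Of the 2779 ranked candidates in the member windows 0.972% were in the main list (interval 0.669 to 1.41%), against 1.53% (1.46 to 1.60%) of 126722 in all protein-coding windows. These intervals cover counting error only. Neither the densities nor these shares make allowance for gene length, and the members were long, with a median of 32349 bp against 2166 bp. Whether the lower density goes with gene length was not tested. By role the density was above 17.4 per Mb at transmitter (35.75), RNA-binding (33.11), fate (31.78) and midline guidance genes (19.44). It was lower at vesicle release (14.83), glial and septate junction (14.06), adhesion (6.742), axon growth (3.699) and channel genes (0). These role values rest on 0 to 7 main summits each.

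The 27 summits were of middling strength. Their median signal was 93.8 (range 60.8 to 336.9), 18 ranked at or above the middle of the main list (rank 1044), and 1, that of moody, was among its top 100. Support in both replicate lists was found at 15 (55.6%), in 1 list at 7 and in neither at 5, and over all main peaks the corresponding counts were 877 (42.5%), 604 and 581 of 2062. With another main summit within 10 kb there were 8 (29.6%), against 52.8% of all main summits. By place, 7 lay at a member's start site, 5 at the start site of another protein-coding gene and 15 at no coding start site, while 885 of the 2062 main summits (42.9%) lay within 500 bp of a coding start.

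**Figure D2:**
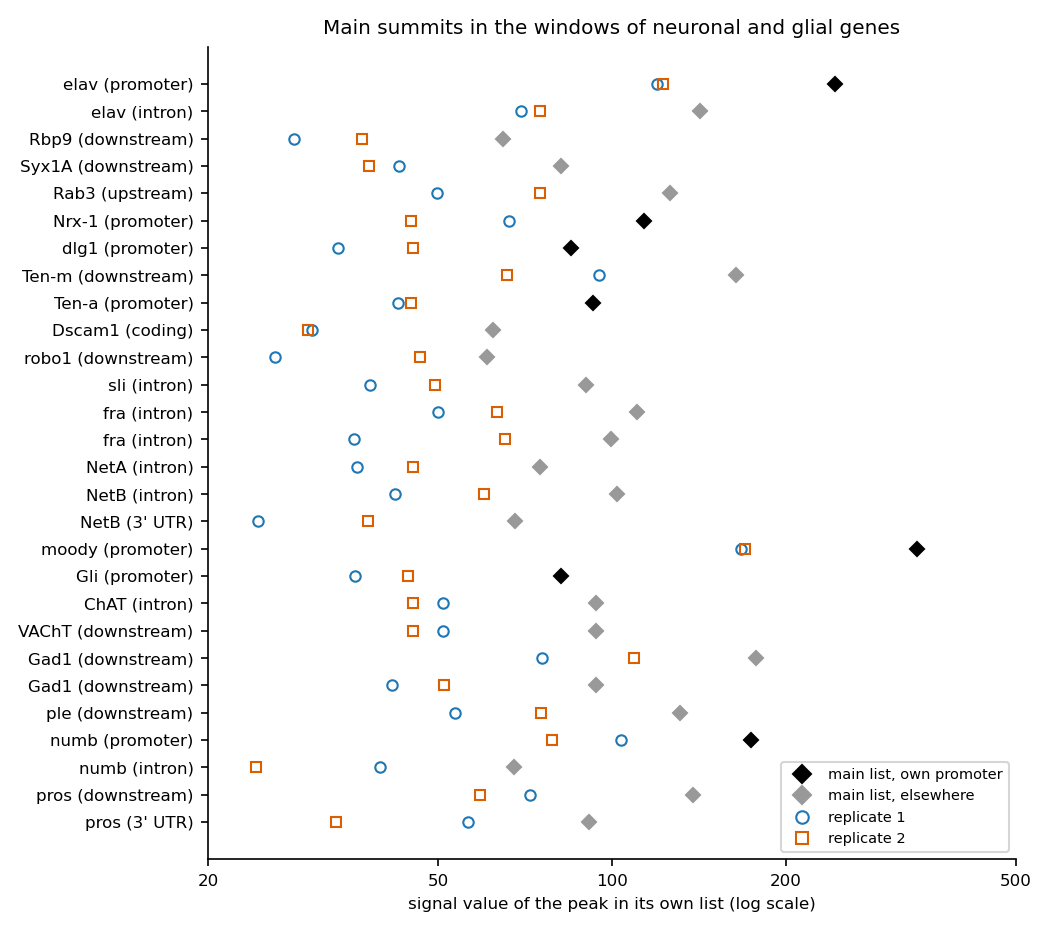
Signal value (log scale) of each main summit in the member windows, ordered by role, in the main list (diamonds, black at a promoter of the gene) and in the ranked lists of replicate 1 (circles) and replicate 2 (squares). The values of the lists are on their own scales; moody is highest in all 3 (337, 167 and 169.9), and the shared summit of ChAT and VAChT appears on a line for each.

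The counts by role that follow rest on 2 to 8 genes each and stand beside the 27.4% of all protein-coding genes with a summit in the window (25.1% to 56.1% by length), so they describe the members only. Replicate signals are set side by side from separate lists, each on its own scale. Where they are called close or higher, the printed values alone are described.

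Of the neuronal RNA-binding proteins, elav and Rbp9 had main summits and fne had none. The gene elav encodes the pan-neuronal protein that regulates splicing and polyadenylation of neuronal transcripts and marks differentiated neurons. Its promoter summit (chrX:523437-523513) had a signal of 119 in replicate 1, 123 in replicate 2 and 243 in the main list, where it ranked 160. It lay 251 bp upstream of the start of elav, which the noncoding gene lncRNA:enrr shares, inside the neighbouring gene arg. A second elav summit (chrX:522487-522786), in an intron 589 bp downstream of that start, had 69.6 and 75.1 in the replicates and 142 in the main list. Both summits were supported by both replicates, whose values were close to each other, but the bases around them differed, with 27.7% GC at the promoter and 57.4% in the intron. The summit in the window of Rbp9, an Elav relative, had only 64.9 and no replicate support, and it lay 4418 bp beyond the gene and 39 bp upstream of gammaTub23C, a gamma-tubulin gene, with the start of Rrp1 within 500 bp as well.

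In the vesicle release group Rab3 and Syx1A had main summits, and brp, Syt1 and nSyb, which encode an active zone scaffold, the calcium sensor of release and the vesicle SNARE, had none. The Rab3 summit (chr2R:10731096-10731395), in the window of this vesicle GTPase gene, had 49.8 in replicate 1, 75.2 in replicate 2 and 126 in the main list. It lay 2043 bp upstream of Rab3 but 89 bp upstream of CG7220, inside Daao1, whose start is within 500 bp as well. The main summit at Syx1A, the syntaxin of the plasma membrane, had 42.8, 38.0 and 81.5, was supported by replicate 1 alone and lay 2373 bp beyond the gene in eIF4EHP. No summit of this group lay at a promoter or in an intron of a member.

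A much stronger peak near Syx1A was outside the main list. The candidate at chr3R:24109085-24109312, 3441 bp upstream of Syx1A and 132 bp from the start of CG18428, had a signal of 452 and a score of 1000, the highest a peak can have, and it ranked 38 among all 151546 candidates. It was in both replicate lists, with 201 in replicate 1 (rank 52 of 1253) and 249 in replicate 2 (rank 31 of 1265), yet in neither pooled thresholded list. Its GC content was 17.8%. On the arms, 72 candidates had a score at or above 830, the lowest of the main list, without being in it, so this was not the only such peak.

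None of the 8 channel genes had a main summit. These are para (the sodium channel), cac (a calcium channel), Sh, Shab, Shal, Shaw and eag (potassium channels) and slo (a calcium-activated potassium channel), with a median length of 54160 bp. Their windows spanned 0.548 Mb and held 584 ranked candidates, of which 0 were in the main list (Wilson interval 0 to 0.6535%). The share in all protein-coding windows was 1.53%, without allowance for gene length. The interval covers counting error only and takes candidates as independent, so no depletion at channel genes is read from it. In the other gene list, under Other observations, 7 of 24 channels and receptors had a main summit in the window. Among the 8 members here, eag came closest to the main list. Its candidate (chrX:14952424-14952723) had 23.4, 54.6 and 79.7 in replicate 1, replicate 2 and the pooled ranked list, with a score of 803. It was in the conservative list but not the main list and lay 2903 bp upstream of eag, 565 bp from the start of pdgy. Another peak in that window, 4475 bp upstream of eag, was in the list of replicate 2 (signal 52.6, rank 850 of 1265), and no other channel gene had a peak of a replicate list. The strongest candidate of Shab ranked 2340, and those of Shaw and para ranked 13270 and 13611, the latter the weakest of all 48 members.

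The synaptic adhesion and scaffold group had summits at 4 of 6 members, 3 of them at a promoter. Its median length was 38370 bp, and 45.7% of all protein-coding genes of 30 to 60 kb had a summit in the window, with 8.36% of all protein-coding genes having one at a promoter. Nrx-1, the presynaptic neurexin, had a summit (chr3R:22469164-22469463) 133 bp downstream of a start site, with 66.4 in replicate 1, 44.9 in replicate 2 and 114 in the main list. Ten-a, a teneurin that matches synaptic partners, had one (chrX:12203663-12203962) 15 bp downstream of an internal start site, 160115 bp from the outermost start of the longest member, with 42.5, 45.0 and 92.8. The replicates were close for Ten-a and higher in replicate 1 for Nrx-1, and both summits were supported by both lists.

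The dlg1 gene encodes the Discs large scaffold of synapses and junctions. Its summit (chrX:11390615-11390914) had 33.6, 45.3 and 85.0, lay 393 bp downstream of an internal start site and was in neither replicate list. The other teneurin gene, Ten-m, had the strongest summit of the group (chr3L:22288380-22288679), with 95.1, 65.7 and 164, but it lay 4514 bp beyond the gene and 135 bp upstream of IleRS, an aminoacyl-tRNA synthetase gene, with the start of Hem within 500 bp as well. Nlg1 and Nlg2, neuroligins that bind neurexin, had none, with best candidates at ranks 3061 and 3401.

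Internal start sites were common among the promoter summits. Of 20 members with a start site over 1000 bp inside the gene, 5 had a promoter summit, and at 3 of them (dlg1, Ten-a and numb) it lay at an internal site only. Among all protein-coding genes of that kind it was 175 of 298 (58.7%).

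**Figure D3:**
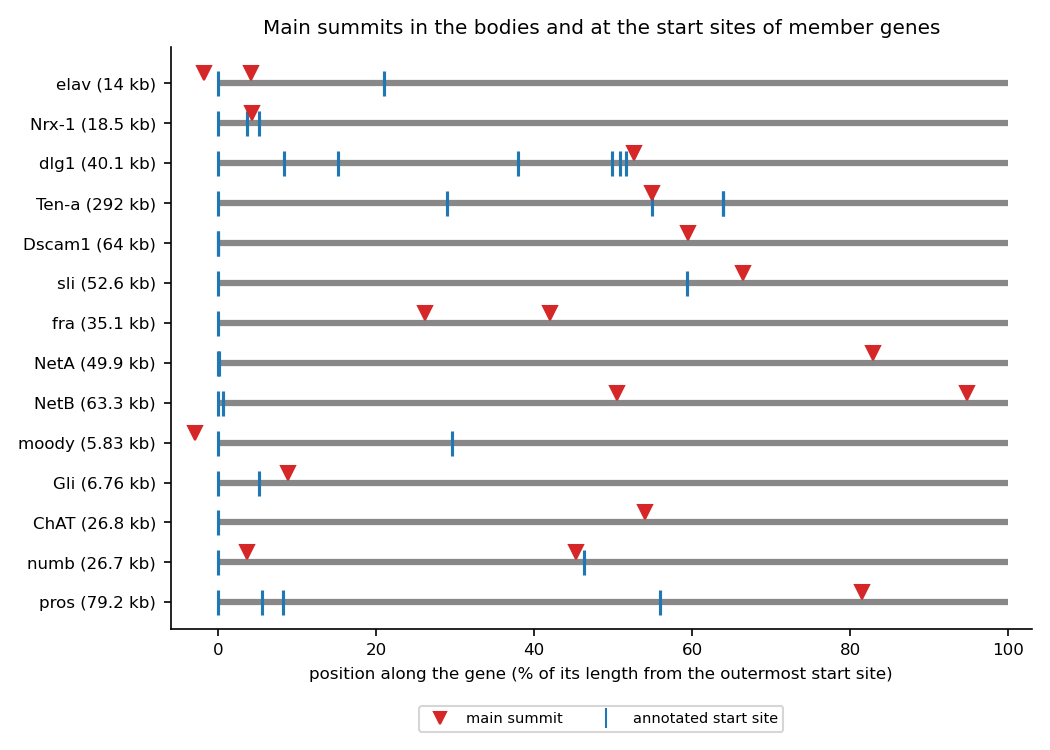
Position of main summits (red triangles) and annotated start sites (blue ticks) along the 14 members with a summit in the body or at a start site, in percent of gene length from the outermost start; the length of each gene is given in kb. Summits of Ten-a, dlg1 and one of numb sit at internal start sites, while those of fra, NetA, NetB, ChAT, sli and Dscam1 lie over 500 bp from every start site of their own gene.

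Of the axon growth and cytoskeleton genes only Dscam1, the self-avoidance receptor with many spliced forms, had a main summit, in its coding sequence 38047 bp from the start and 477 bp from the start of the noncoding gene asRNA:CR44071. The signal was low, with 30.3, 29.8 and 62.1, and neither replicate list held it. Fas2, a cell adhesion gene of axon fascicles, had a candidate 172 bp downstream of its start (chrX:4205771-4206070) with 33.8 in replicate 1, 22.2 in replicate 2 and 59.2 in the pooled ranked list. It was in the thresholded list of replicate 1 alone, and its pooled score was 801. The best candidate of futsch, a microtubule-associated protein gene, ranked 13260.

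Midline guidance had 5 of 7 members with a summit, in an intron at 4 of them and at a promoter in none. Its median length was 40368 bp, and 45.7% of all protein-coding genes of 30 to 60 kb had a summit in the window, and 32.9% of those of 30 kb and over had one in an intron. The ligand gene sli, expressed by midline glia, had an intron summit (chr2R:15887031-15887330) 3736 bp downstream of an internal start site, with 38.2, 49.3 and 90.1 and support in replicate 2. The Netrin receptor gene fra had 2 intron summits 9199 and 14736 bp from its start. They had 50.1 and 35.8 in replicate 1, 63.2 and 65.4 in replicate 2, and 110.3 and 99.7 in the main list. Replicate 2 was higher at each, and the first was supported by both replicates.

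Both Netrin ligand genes, which lie next to each other on X, had summits far inside. At NetB the stronger (chrX:14717267-14717566), 31593 bp from the start, had 42.2, 60.2 and 102 and support in both replicates, while one in the 3′ UTR had 67.9 and no support. At NetA the summit lay 41298 bp from the start, had 36.1, 45.3 and 75.0 and was in neither replicate list. Of the Slit receptors, robo1 had only a weak summit beyond its end (60.8, the lowest of the 27), 138 bp from the start of Ppa. Its relatives robo2 and robo3 had none, with best candidates at ranks 3206 and 3071.

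Of the glial and septate junction genes, moody and Gli had summits, both at promoters. The moody gene encodes a G protein-coupled receptor of the glia that form the blood-brain barrier. Its summit (chrX:2050195-2050353) had 167 in replicate 1, 169.9 in replicate 2 and 337 in the main list, where it ranked 77, and it lay 172 bp upstream of the start, inside CG4313. The replicates were nearly equal there. Gli encodes Gliotactin of the tricellular junctions, and its summit (chr2L:15762009-15762308), 249 bp downstream of a start site, had 35.9, 44.4 and 81.6 and support in replicate 2 alone. The glial regulators repo and gcm and the junction genes Nrg, Cont and Nrx-IV had none, and their best candidates ranked from 4438 (gcm) to 9322 (repo).

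Transmitter genes had summits at 4 of 6 members, none at a promoter. Their median length was 11892 bp, and 37.1% of all protein-coding genes of 10 to 30 kb had a summit in the window, and 8.36% of all protein-coding genes had one at a promoter. ChAT, choline acetyltransferase, and VAChT, the vesicular acetylcholine transporter nested at the same locus, shared 1 summit (chr3R:18719851-18720150). It had 50.9, 45.3 and 93.8, was supported by both replicates and lay in the ChAT intron, 14500 bp from the start and 1085 bp beyond the end of VAChT. The start of the noncoding gene lncRNA:CR46265 was 378 bp from it. Gad1, which makes GABA, had 2 summits 486 bp apart beyond its end, in wit, a BMP receptor gene. The stronger (chr3L:4070576-4070654) had 75.7, 109 and 178, and the other 41.6, 51.2 and 93.8, with replicate 2 higher and both replicates in support of each.

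The tyrosine hydroxylase gene ple, the first enzyme of dopamine synthesis, had a summit 4165 bp beyond its end with 53.5, 75.5 and 131, supported by both replicates. No coding start site lay within 500 bp of it. Ddc, the next enzyme of that pathway, and VGlut, the vesicular glutamate transporter, had no main summit, with best candidates at ranks 6518 and 9358.

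Both fate genes had 2 summits each. The stronger of numb, the Notch inhibitor partitioned at asymmetric divisions, lay 246 bp upstream of an internal start site (chr2L:9449434-9449733), with 104 in replicate 1, 78.7 in replicate 2 and 174 in the main list. The other, in an intron, had 39.7, 24.2 and 67.8 and was the only one of the 27 absent from the conservative list. The pros gene encodes the homeodomain protein that ends self-renewal in ganglion mother cells. Its stronger summit (chr3R:11409749-11410048), with 72.1, 59.1 and 138, lay 2272 bp beyond its end and 24 bp upstream of mgr, near the start of Irbp too, and the other, in its 3′ UTR, had 56.3, 33.2 and 91.2. Replicate 1 was higher at all 4 of these summits.

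The strongest candidate of each member was compared next. Over all 48 members, each with a candidate, the median rank of the best candidate was 2269 (range 38 to 13611). It was 4949 over the 13326 of 13945 protein-coding genes that had a candidate in the window. By class, again over genes with a candidate, it was 5579 under 10 kb, 3010 at 10 to 30 kb, 2240 at 30 to 60 kb and 1784 at 60 kb and over. Among the 26 members without a main summit the best ranked were eag (1273), Fas2 (2199), Shab (2340), Nlg1 (3061) and robo3 (3071), and the worst were para, Shaw and futsch.

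**Figure D4:**
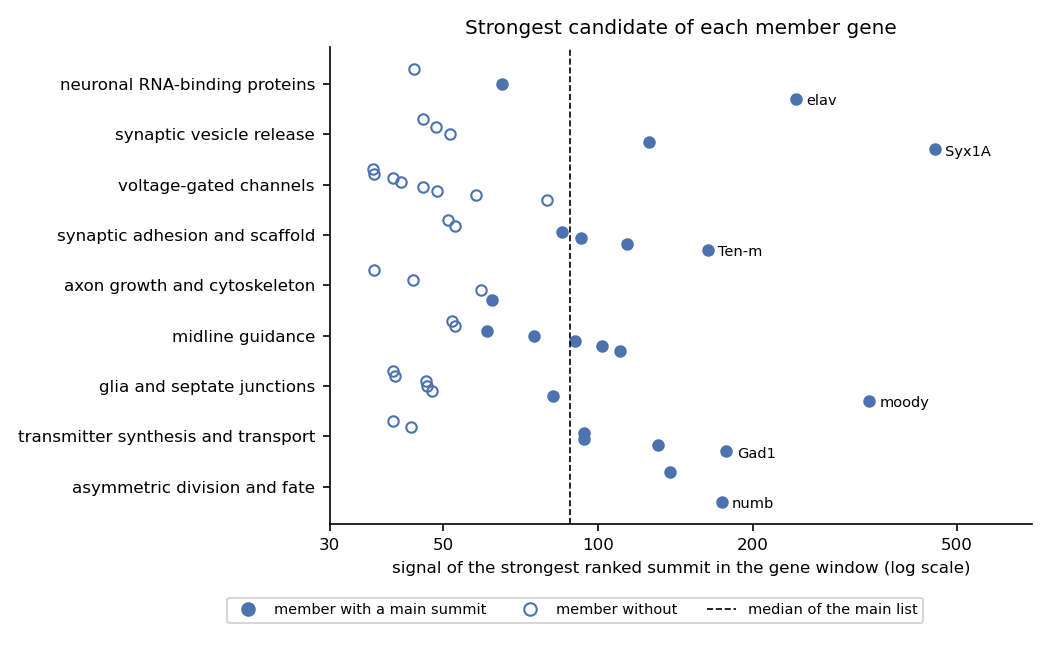
Signal (log scale) of the strongest ranked summit in the window of each member, by role; filled circles are members with a main summit, open circles those without, and the dashed line is the main list's median of 88.1. The channels hold open circles only, and the highest point, Syx1A (452), is the candidate that is not itself in the main list.

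Each replicate alone gave a like picture. The list of replicate 1 had a summit in the windows of 16 members (33.3%), against 19.7% of all protein-coding genes, and that of replicate 2 in 19 (39.6%), against 18.8%. Neither comparison makes allowance for gene length. Across the 27 main summits the replicate signals had a Spearman correlation of 0.649 and a Pearson correlation of 0.862, given as a description of peaks that share their libraries. The higher replicate exceeded the lower by a median of 1.31-fold and at most 1.83-fold, and replicate 1 was the higher at 9. These ratios set the scales of separate lists side by side. Over all 2023 main summits with a value in both, the median was 1.27-fold.

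The summits lay in A/T-rich DNA, as did the main list as a whole. GC content within 50 bp of the 27 summits was 36.9% ± 10.4 (SD over summits), against 42.5% ± 6.93 in flanking windows centred 400 bp away, and 18 of them (66.7%) were below their flanks. Over all main summits it was 35.0% ± 10.7, and 73.9% were below their flanks. The other 2752 ranked summits of the member windows had 45.9% ± 9.92. At the 7 own start sites the mean was 37.6% ± 12.4, and at the 15 summits away from any coding start site 37.9% ± 10.4, a difference far smaller than the spread. The longest A/T run had a median of 10 bases at the members and in the main list and 7 in ranked summits, and it reached 15 bases at 4 of 27 (14.8%) against 18.2% of all main summits.

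**Figure D5:**
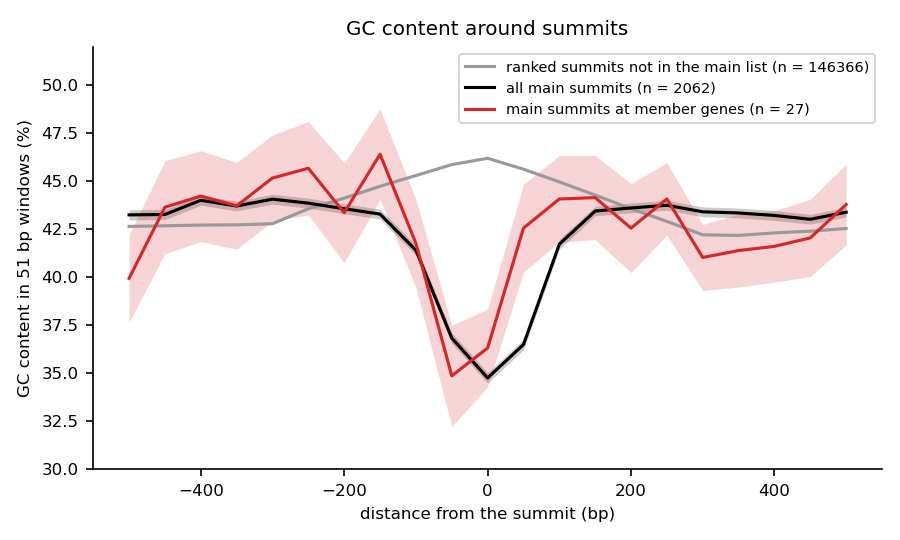
GC content in windows of 51 bp, in percent, by distance from the summit in bp, for the 27 member summits (red), all 2062 main summits (black) and ranked summits outside the main list (grey); bands are 1 standard error. At the summit members stand at 36.3%, main summits at 34.8%, their lowest value, and ranked summits at 46.2%. The lowest value of the members, 34.9%, is at -50 bp.

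Short motifs were counted on both strands within 50 bp of each summit. AAATAT was found at 7 of 27 member summits (25.9%), against 32.7% of all main and 12.5% of ranked summits, and in 6 of 54 flanking windows (11.1%). TATAAA was at 4 (14.8%) against 21.5% of main and 7.94% of ranked, and AAAAAA at 5 (18.5%) against 25.7% and 14.4%. TATAAA was also in 9 of 54 flanking windows (16.67%), a share no lower than at the member summits. AAAAAA was in 7 of 54 flanking windows (12.96%). The matches of these A/T motifs overlapped in part. CANNTG, the E-box bound by proneural factors, was at 8 (29.6%), against 36.3% of main and 43.0% of ranked summits, and in 28 of 54 flanking windows (51.9%). TAATTA, a homeodomain core, was at 1 member summit (9.60% of main summits), GAGAGA at 1 (3.44%) and CACACA at 2 (6.01%). TATCGATA (1.12% of main summits) and AGATAA (8.24%) were at 0 of the 27. A match describes these letters in these windows only.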

How the data were processed

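Binding was measured by ChIP-seq in 2 replicates of 1 group. The authors deposited peak lists on dm6, per the deposited file descriptions and the labels: a thresholded and a ranked list from each replicate, and main and conservative versions of both from the replicates pooled. The threshold used the irreproducible discovery rate (IDR), which compares peak ranks between sets of calls. The aligner and peak caller were not given in the sources used here. With every deposited peak came the authors' signal value, comparable within a list only, and a deposited score of up to 1000. The lists hold no counts, so depth is unknown and intervals cover counting error only, and shares of genes and peaks describe these lists, not variation between animals.

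Summits on the chromosome arms were placed on the gene models of Ensembl 115, whose assembly has the coordinates of dm6. A promoter was the DNA within 500 bp of any start site. The last columns of the ranked lists, 40 in all, carry no sample's name and were left out. The member list and other lists were chosen with earlier results of these data known, so no list test was run. Every member with a main summit was named, and members without one by the 5 best and 3 worst candidates, with further ranks added after their values were seen. Sequences were to come from the 12 strongest named summits on the arms from which sequence is printed here. Gli was added after its value was seen, to complete the promoter set, and the others were left out for space. Python 3.11.15, numpy 2.4.6, pandas 2.3.3, scipy 1.17.1 and matplotlib 3.10.9 were used, and placement was tested on simulated peaks. Alternatives changed the peak list, the flank, the promoter distance, the overlap and the GC window.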

Additional observations from a re-analysis of the deposited data

How the results depend on the processing

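The members with a main summit in the window (22) were recounted under the alternatives tried. They numbered 16 without replicate 2 (33.3%, against 19.7% of all protein-coding genes) and 19 without replicate 1 (39.6% against 18.8%). With the conservative list they numbered 23 (47.9% against 26.6%), and with main peaks at or above the median signal 15 (31.25% against 17.0%). With main peaks found in both replicate lists they fell to 14 (29.2% against 14.4%), and with no flank to 13. Promoter members (7) numbered 6 with either replicate left out, against 6.024% of all protein-coding genes without replicate 2 and 5.665% without replicate 1. They numbered 5 within 250 bp, but 2 (elav and moody) when the outermost start site alone was used. Intron members (7) numbered 5 with either replicate left out and 4 with peaks of both lists. Shares over all protein-coding genes are not given here for these intron counts or for the changed flank and start-site settings. The 27 summits became 21 with either replicate left out, 15 with peaks of both lists, 16 with no flank and 43 with a flank of 10 kb. Support in both lists stayed at 15 under both alternatives tried, and GC content ranged from 34.5% to 36.5% with 1 replicate left out. The changes under a smaller flank, fewer start sites or fewer peaks follow from their construction. Windows of neighbouring genes overlap, so a summit near a member may belong to another gene, and without depth or an input library the absence of a main peak shows only that none passed the threshold. No paired analysis was possible because the study has 1 group.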

Other observations

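Another list of neuronal and glial genes, chosen by function with earlier results of these data known, held 136 genes matched to the annotation, and 36 of them (26.5%) had a main summit in the body or within 5 kb, near the 27.4% of all protein-coding genes. At a promoter it was 6 (4.41%), against 8.36% of all protein-coding genes. The strongest of these was at NaCP60E, a relative of the sodium channel, with a signal of 156 and support in both replicates. It lay 75 bp upstream of a start site of NaCP60E, but a start of RpL41, a ribosomal protein gene, was within 500 bp as well. The next were nrv1, a sodium pump subunit (108, both replicates), and AP-2alpha, a clathrin adaptor (105, replicate 2 alone, with a start of ebi within 500 bp too). Then came trio, a guanine exchange factor of axon growth (88.2, replicate 2 alone). The weakest were unc-5, a repulsive Netrin receptor (the stronger of its pair at 61.2, replicate 2 alone), and ogre, an innexin gene (55.9, neither replicate). By role, 10 of 26 glial and septate junction genes, 10 of 31 guidance and adhesion genes, 7 of 24 channels and receptors, 5 of 22 neuroblast and fate genes and 4 of 21 vesicle genes had a summit in the window, and 0 of 12 transmitter genes did. These counts stand beside 27.4% of all protein-coding genes, and 25.1% to 56.1% by class of gene length, and nothing particular to a role is read from them.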
